A study of Drosophila melanogaster with 13 samples.

Results

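The genes described here are 52 genes of cAMP, calcium and learning signalling in Drosophila, and the data are the genomic sites in the mushroom bodies (MBs) where CREB and its coactivator CRTC were found at these genes. A region belonged to a gene when the deposited table of CREB/CRTC-binding regions named that gene's symbol beside it, and the match itself used no score. The table holds 4995 regions of 2833 gene symbols. Of these, 62 regions lay at 30 of the 52 genes, and the other 22 genes had no region in the table.

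Chromatin was taken from purified nuclei of the MBs, the paired brain structures in which flies store olfactory memories. The flies, labelled as strain CS10 and outcrossed to the control line w(CS10), carried a FLAG tag on the nuclear envelope (FLAG-KASH), driven in the MBs by MBp-LexA, so that nuclei could be pulled out by the tag. Since MBp-LexA is weak in α'/β' neurons, the sites describe mainly α/β and γ neurons. Chromatin immunoprecipitation with sequencing (ChIP-seq) was made with antibodies to CREB and to CRTC in 3 libraries each of naive flies and 3 libraries each of flies 1 day after spaced training, with 1 library of input DNA from naive flies. Both groups carried the same tag and strain background, and differed in training. The authors deposited 1 list of 7243 sites for CREB and 1 list of 5990 sites for CRTC, each built from sites called in at least 2 of 3 replicates. The lists give no value per library and do not mark the group that gave a site. The spread between replicates, the depth behind a site and the effect of training could thus not be measured from them, and what follows describes where the proteins were found and how high the sites scored.

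In associative learning, aminergic and cholinergic receptors on MB neurons act through heterotrimeric G proteins on adenylate cyclases, which make cAMP, while phosphodiesterases break it down. cAMP releases the catalytic subunits of protein kinase A (PKA), which phosphorylate CREB. Calcium acts in parallel through calmodulin, CaM kinases and the phosphatase calcineurin, which also dephosphorylates CRTC so that it can enter the nucleus and join CREB on DNA. Several of these genes, among them rutabaga (rut), dunce (dnc), amnesiac (amn) and radish (rad), are known from fly learning mutants.

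In the table, a region is a CRTC-binding site whose nearest CREB-binding site is no farther than 200 bp away. Its distance to the transcription start site (TSS) of the gene is negative upstream and 0 where the site covers the TSS. The score is that of the authors' peak caller against input DNA. Scores have no unit and are compared here only within a list, by their rank among the 4995 regions, from 1 for the highest. Coordinates are those of dm3 as deposited, and whether they count from 0 or from 1 was not given in the sources used here. Sequences of the sites were not analysed here.

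Regions were found at 30 of the 52 genes, that is, at 57.7% of them, while 2707 of 13951 protein-coding genes, or 19.4%, had a region. With sites at least 100 bp wide, as 55.9% of all regions were, 30 regions at 18 genes were left. A second list of 87 genes of the same pathways had regions at 46 genes, or 52.9%, and at 47 with Vap-33A, which the table holds as Vap-33-1. Both lists thus had a share above that of all protein-coding genes. The 52 genes were picked for their roles in neurons, and both lists were chosen with earlier results of these data known. For these reasons, and since gene length was not compared, nothing about the pathway itself was read from this share.

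The number of regions per gene ranged from 1 to 6. CrebB-17A, which encodes dCREB2, and phl, which encodes the kinase Raf, had 6 regions each. Akap200, dnc and aPKC had 4 regions each, and G-oalpha47A, Ras85D, CrebA and sgg had 3 each. A pair of regions lay at each of rg, mAcR-60C, CanA-14F, Cam and Pka-R2, and the remaining 16 genes had 1 region. Of the 30 genes with a region, 9 had at least 3 regions, which is 30%, and 16.8% of all genes in the table did. The mean was 2.07 regions per gene here and 1.76 over the table, and the median was 1 in both. Of the genes with a region in the second list, 32.6% had at least 3, with a mean of 2.30 and a median of 2. Gene length was not compared, so these counts were not read as a trait of the 52 genes. Counts of 6 were high but not at the top of the table, where 73 genes had at least 6 regions and the highest count was 17.

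**Figure D1:**
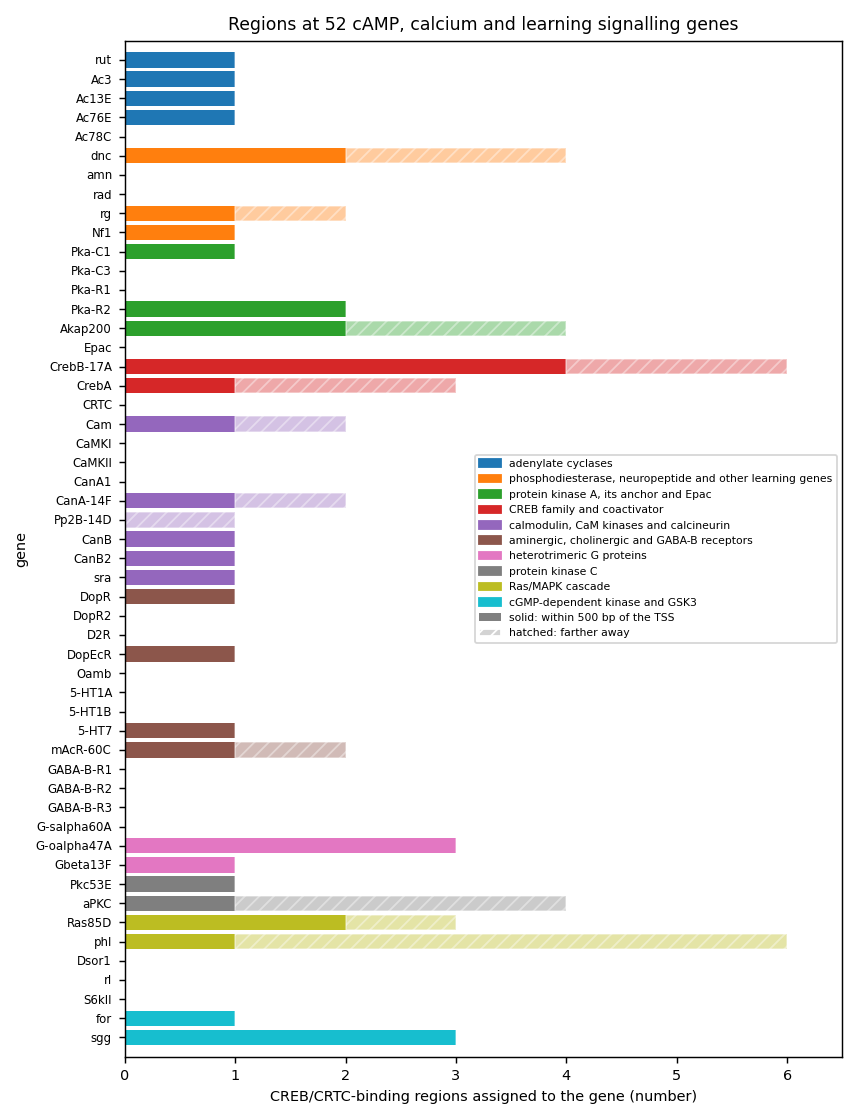
Number of CREB/CRTC-binding regions assigned to each of the 52 genes (horizontal axis, number of regions), with genes grouped and coloured by role. Solid bars are regions within 500 bp of the TSS, hatched bars are regions farther away, and genes with no bar had no region; CrebB-17A and phl reached 6 regions, of which 4 and 1 lay within 500 bp.

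Most of the regions lay close to a TSS, here as in the whole table. Of the 62 regions, 40 lay within 500 bp of a TSS, which is 64.5% (95% Wilson interval 52.1 to 75.3%), and 63.8% of all regions did. The TSS was covered by 10 regions, or 16.1%, and by 21.0% of all regions. Of the 30 genes, 23, or 76.7%, had a region covering or within 100 bp of a TSS, and 70.6% of all genes in the table did. The 23 were rut, Ac13E, Ac76E, dnc, rg, Pka-C1, Pka-R2, Akap200, CrebB-17A, CrebA, Cam, CanB, sra, DopR, DopEcR, 5-HT7, mAcR-60C, G-oalpha47A, Pkc53E, aPKC, Ras85D, for and sgg. More than 5000 bp from the TSS lay 7 regions, or 11.3%, and 8.43% of all regions did. These 7 were confined to phl with 4, CrebA with 2 and dnc with 1. Upstream of the TSS lay 19 regions, or 30.6%, and downstream 33, or 53.2%, while over the table these shares were 41.9% and 37.1%. The interval given covers counting error only, and regions of 1 gene share that gene.

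**Figure D2:**
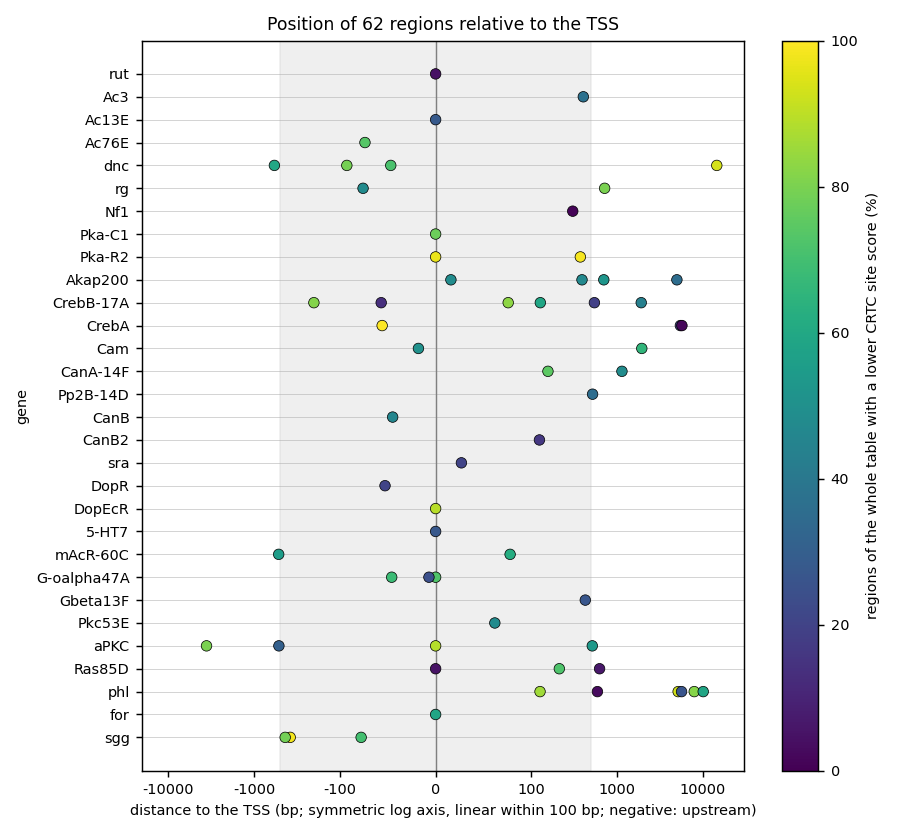
Signed distance of each of the 62 regions to the TSS of its gene (horizontal axis, bp, symmetric log axis that is linear within 100 bp, negative upstream), with the 30 genes on the vertical axis. Each point is a region, its colour is the percentage of all 4995 regions with a lower CRTC site score, and the grey band marks 500 bp on either side; 40 of 62 points lie in the band and phl has 4 points beyond 5000 bp downstream.

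Site scores at these genes ran from near the lowest of the table to CRTC and CREB scores below its highest, 122.6 and 63.6. The CRTC site score ranged from 1.67 at Nf1 to 31.7 at CrebA, with a median of 5.03 and quartiles of 3.27 and 8.18. Over all regions the median was 4.66 and the quartiles were 3.17 and 7.54. The CREB site score ranged from 1.72 to 43.0, with a median of 5.50 and quartiles of 3.36 and 9.26, and over all regions the median was 4.61 and the quartiles were 3.06 and 7.93. Over the 62 regions, the binomial 95% interval of the median ran from 4.40 to 6.78 for CRTC. For CREB it ran from 4.20 to 6.23, and both intervals held the median of the table. These intervals treat regions as independent, but regions of the same gene share that gene, and some CrebA regions share a CREB site. They are thus only descriptive, and neither a difference from the table nor a likeness to it was read from them. Above the table's median lay 34 regions by CRTC and 35 by CREB. Among the highest 10% of the table, which began at 11.6 for CRTC and 12.7 for CREB, lay 6 and 7 regions. The false discovery rate of the CRTC site was listed as 0 at 11 regions, or 17.7%, and at 18.2% of all regions. That of the CREB site was listed as 0 at 15 regions, or 24.2%, and at 17% of all regions. The highest false discovery rate at these genes was 0.00928 for a CRTC site and 0.00836 for a CREB site.

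A region needs a CREB site within 200 bp of its CRTC site, so the closeness of the 2 proteins was set by that rule. Within this limit most paired sites overlapped. A CREB site overlapped or touched the CRTC site at 57 of 62 regions, or 91.9%, and at 90.7% of all regions. The centres of the paired sites were apart by a median of 22.3 bp, and of 22 bp over the table. The remaining 5 pairs were a region each of CrebA, Ras85D, CanA-14F, CanB2 and aPKC, with gaps of 174, 8, 73, 3 and 20 bp. The CRTC site was 10 to 180 bp wide, with a median of 97.5 bp here and 106 bp over the table. As a description, Spearman's rho of CREB and CRTC site scores was 0.877 over the 62 regions and 0.816 over the 4995. Both scores were made against the same input library, and regions of a gene are not independent. The percentage of regions with a lower score differed between CREB and CRTC by at most 20 points at 56 of 62 regions, or 90.3%, and at 79.7% of all regions.

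**Figure D3:**
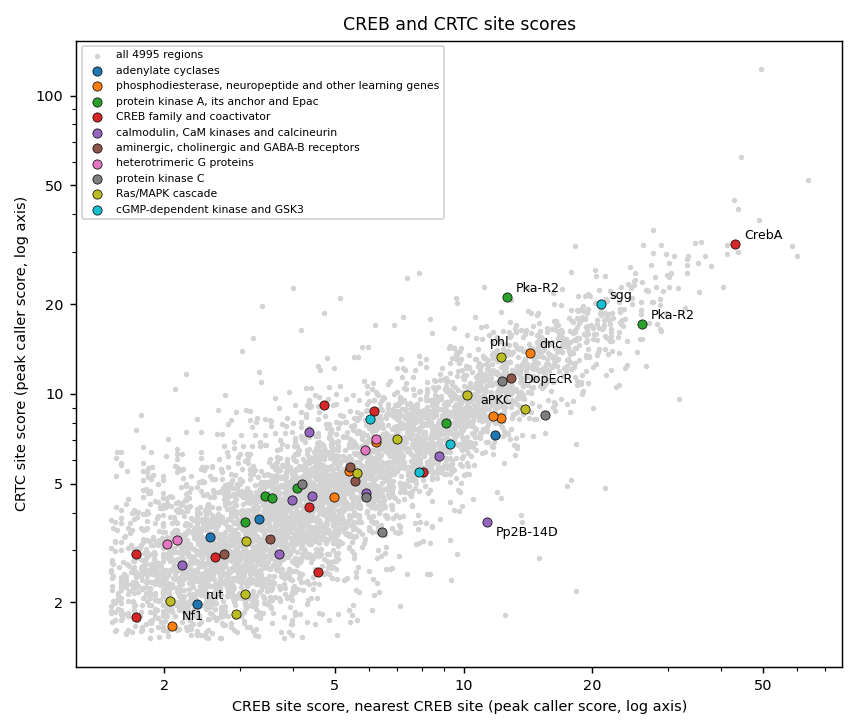
CRTC site score (vertical, log axis) against the score of the nearest CREB site (horizontal, log axis), both from the authors' peak caller and without unit. Grey points are all 4995 regions and coloured points the 62 regions by role of their gene; the highest is CrebA (31.7 for CRTC and 43.0 for CREB), and Pp2B-14D (3.73 and 11.3) lies below the other coloured points of similar CREB score.

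CREB itself is a member of this list, and its gene carried many regions. CrebB-17A encodes dCREB2, the fly CREB whose activity is needed for long-term memory. Its 6 regions spread over 5198 bp of chromosome X, and their distances need at least 4 start sites of the gene. The region at chrX:18260386-18260530 lay 202 bp upstream of a TSS and had a CRTC score of 8.79 and a CREB score of 6.17. That at chrX:18261464-18261528 lay 545 bp downstream and scored 2.83 for CRTC and 2.63 for CREB. That at chrX:18262830-18262890 lay 1911 bp downstream with scores of 4.19 and 4.36. The first of these 3 was thus the highest by both proteins. The other 3 regions formed a cluster near other start sites of the gene. The region at chrX:18264864-18264972 lay 57 bp upstream of a TSS with 2.52 for CRTC and 4.56 for CREB, and that at chrX:18265158-18265290 lay 128 bp downstream with 5.47 and 8.02. The region at chrX:18265512-18265584, 76 bp downstream of a TSS, had the gene's highest CRTC score, 9.19, and a CREB score of 4.73. The highest CRTC site and the highest CREB site of the gene were therefore different regions. In rank terms, 83.003% of all regions had a lower CRTC score than the last region and 51.6% had a lower CREB score. At the region 57 bp upstream this turned round, with 13.4% for CRTC and 49.2% for CREB.

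CrebA encodes a related bZIP factor, known for driving genes of the secretory pathway. Its region at chr3L:15528311-15528457, 56 bp upstream of the TSS, was the strongest of all 62, with a CRTC score of 31.7 (rank 10 of 4995) and a CREB score of 43.0 (rank 9). The other regions of CrebA lay 5456 and 5688 bp downstream of the TSS at chr3L:15533970-15534038 and chr3L:15534202-15534236. They had CRTC scores of 2.91 and 1.78 and shared 1 CREB site with a score of 1.72, the lowest CREB score of the list. The gene for the coactivator CRTC had no region.

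In the PKA pathway, Pka-R2 had the highest scores. It encodes the type II regulatory subunit, which holds the catalytic subunits inactive until cAMP binds. The region at chr2R:5913488-5913608 covered the TSS and had a CRTC score of 17.1 (rank 150) and a CREB score of 26.1 (rank 55). The region at chr2R:5912996-5913172, 374 bp downstream of a TSS, had a CRTC score of 21.1 (rank 72) and a CREB score of 12.6 (rank 512). Each protein thus scored highest at a different region of the gene. Pka-C1, the main catalytic subunit, had 1 region, at chr2L:9699197-9699315, which covered the TSS with scores of 8.01 for CRTC and 9.07 for CREB. Akap200, which anchors PKA, had 4 regions over 9245 bp of chromosome 2L with a narrow range of scores. They lay 16, 701, 391 and 4969 bp downstream of a TSS, from chr2L:8415706-8415744 to chr2L:8424843-8424951, with CRTC scores of 4.56, 4.83, 4.47 and 3.73. Their CREB scores were 3.44, 4.08, 3.57 and 3.09, all below the table's median of 4.61. Many regions did not go with high scores at this gene. Pka-C3, Pka-R1 and the cAMP-activated exchange factor Epac had no region.

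Of the adenylate cyclases, 4 of 5 had 1 region each, while 19.4% of all protein-coding genes had a region. All 4 regions lay within 500 bp of the TSS. For rut, the calcium- and calmodulin-activated cyclase, the region at chrX:14720081-14720149 covered the TSS and had low scores, 1.98 for CRTC and 2.38 for CREB, with 4.42% and 12.5% of all regions below it. Ac76E had the highest scores of the cyclases at chr3L:19932220-19932312, 74 bp upstream of the TSS, with 7.30 for CRTC and 11.8 for CREB. Ac13E, whose region at chrX:15448236-15448334 covered the TSS, scored 3.31 and 2.56. Ac3 scored 3.82 and 3.33 at chr2L:21632992-21633096, 405 bp downstream. Ac76E was the only cyclase above the table's median by either protein. Ac78C had no region.

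Among the classical learning genes, dnc stood apart by the spread of its regions. It encodes the cAMP phosphodiesterase and had 4 regions over 113079 bp of chromosome X. The region with the highest scores, chrX:3084937-3085025, lay 14464 bp downstream of a TSS, the farthest of all 62, and had a CRTC score of 13.7 (rank 315) and a CREB score of 14.3 (rank 375). The region at chrX:3070287-3070379, 93 bp upstream of a TSS, scored 8.33 for CRTC and 12.2 for CREB. At the other end of the span, chrX:3182722-3182831 and chrX:3183278-3183366 lay 582 and 47 bp upstream of a TSS with CRTC scores of 5.51 and 6.92 and CREB scores of 5.40 and 6.23. All 4 regions of dnc were above the table's medians for both proteins.

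The gene rg (rugose) encodes an A-kinase anchor protein of the neurobeachin family. Its region at chrX:4979727-4979789, 76 bp upstream of the TSS, scored 4.50 for CRTC and 4.98 for CREB, and its region at chrX:4980583-4980706, 717 bp downstream, scored 8.44 and 11.7. The farther region was thus the higher by both proteins. Nf1 encodes neurofibromin, a Ras GTPase-activating protein. Its region at chr3R:21809040-21809128, 305 bp downstream, had the lowest CRTC score of the list, 1.67, and a CREB score of 2.09. The neuropeptide precursor gene amn had no region, and neither did rad, which is known for anaesthesia-resistant memory.

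Of the calcium branch, 6 of 9 genes had regions, beside 19.4% of all protein-coding genes. None of the CRTC scores at these 6 genes passed 7.46. Cam encodes calmodulin. Its region at chr2R:8146795-8146884, 18 bp upstream of the TSS, scored 4.66 for CRTC and 5.92 for CREB. A stronger region at chr2R:8148843-8149006, 1940 bp downstream, scored 6.17 and 8.75. CanA-14F and Pp2B-14D encode catalytic subunits of calcineurin. CanA-14F scored 4.56 for CRTC and 4.43 for CREB at chrX:16479461-16479557, 1140 bp downstream, and 7.46 and 4.36 at chrX:16480953-16481047, 157 bp downstream. Pp2B-14D had a CRTC score of 3.73 and a CREB score of 11.3 at chrX:16453474-16453536, 519 bp downstream. At this region 35.3% of all regions had a lower CRTC score and 87.0% a lower CREB score, a difference of 51.7 points and the largest of the 62.

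The regulatory subunit genes CanB and CanB2 and the calcineurin regulator sra had 1 region each. CanB scored 4.40 for CRTC and 3.96 for CREB, 45 bp upstream of the TSS. CanB2 scored 2.68 and 2.20, 125 bp downstream, and sra scored 2.90 and 3.71, 27 bp downstream. All of these were below the table's medians. CaMKI, CaMKII and CanA1 had no region, so that none of the CaM kinases of the list had one. Most protein-coding genes had none either, since 19.4% had a region.

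The receptors had the lowest share of genes with a region of the 10 roles, 4 of 12, though the share of all protein-coding genes, 19.4%, was lower still. DopEcR, a receptor for dopamine and ecdysteroids, had the highest scores among them. Its region at chr3L:4380359-4380480 covered the TSS with a CRTC score of 11.3 (rank 535) and a CREB score of 12.9 (rank 475). The dopamine receptor gene DopR, which acts through cAMP in MB neurons during learning, had low scores of 2.90 for CRTC and 2.75 for CREB at chr3R:10040585-10040679, 53 bp upstream. The serotonin receptor gene 5-HT7 scored 3.25 and 3.53 at a region that covered the TSS. The muscarinic receptor gene mAcR-60C scored 5.70 and 5.41 at 78 bp downstream and 5.09 and 5.58 at 519 bp upstream. DopEcR and mAcR-60C were thus the receptor genes with regions above the table's medians. No region lay at DopR2, D2R, Oamb, 5-HT1A, 5-HT1B, GABA-B-R1, GABA-B-R2 or GABA-B-R3, so that none of the 3 GABA-B receptor genes had one.

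G-oalpha47A, the α subunit of Go, had 3 regions over 7175 bp of chromosome 2R, all within 46 bp of a TSS. At chr2R:6325438-6325592 the region covered the TSS and scored 7.06 for CRTC and 6.23 for CREB. The next, 46 bp upstream of a TSS, scored 6.51 and 5.89, and the last, 7 bp upstream, scored 3.14 and 2.02. These distances need at least 3 start sites, so each region lay beside a start site of its own. The β subunit gene Gbeta13F scored 3.24 and 2.14 at 427 bp downstream, and G-salpha60A, the α subunit of Gs that activates the cyclases, had no region.

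In the Ras/MAPK cascade, 2 of 5 genes held 9 regions, while 19.4% of all protein-coding genes had a region. For phl, which encodes Raf, all 6 regions could be placed from 1 start site and lay downstream of it over 10084 bp of chromosome X. The region 127 bp downstream, chrX:2190044-2190157, scored 9.89 for CRTC and 10.2 for CREB. The region 5139 bp downstream, chrX:2195056-2195220, had the gene's highest CRTC score of 13.3 (rank 345) and a CREB score of 12.2, and the region 7909 bp downstream, chrX:2197826-2197988, had its highest CREB score of 13.9 (rank 397) and a CRTC score of 8.89. The remaining regions, at 591, 5628 and 10060 bp, had CRTC scores of 1.83, 3.22 and 5.42 and CREB scores of 2.93, 3.10 and 5.65. The highest sites of phl by either protein were hence more than 5000 bp from its TSS.

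The small GTPase gene Ras85D had 3 regions, at chr3R:5338030-5338162, chr3R:5338440-5338575 and chr3R:5338773-5338794. The middle region, 213 bp from the TSS, scored 7.04 for CRTC and 6.997 for CREB. The outer ones were weaker, with 2.13 and 3.09 at 626 bp and 2.02 and 2.06 at the TSS. The MEK gene Dsor1, the ERK gene rl and S6kII had no region.

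Both protein kinase C genes had regions, beside 19.4% of all protein-coding genes. The atypical kinase gene aPKC had 4 over 7934 bp of chromosome 2R, which need at least 3 start sites. At chr2R:10845902-10845962 the region covered the TSS and scored 11.04 for CRTC and 12.3 for CREB. The region at chr2R:10842001-10842047, 3587 bp upstream of a TSS, scored 8.49 for CRTC and 15.5 (rank 300) for CREB, the gene's highest CREB score. The regions at chr2R:10846477-10846519 and chr2R:10849881-10849935, 516 bp upstream and 515 bp downstream of a TSS, scored 3.43 and 4.97 for CRTC and 6.44 and 4.20 for CREB. The last of these lay 722 bp from a region of ckn, and it was the only one of the 62 within 1000 bp of a region of another gene. Pkc53E, a conventional kinase, scored 4.50 and 5.92 at chr2R:12812222-12812360, 62 bp downstream.

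Of the remaining kinases, sgg encodes GSK3. Its region at chrX:2536586-2536668, 381 bp upstream of a TSS, had a CRTC score of 19.999 (rank 88) and a CREB score of 20.9 (rank 123). Its other regions, at chrX:2540091-2540233 and chrX:2552638-2552720, lay 436 and 78 bp upstream of a TSS with CRTC scores of 8.23 and 6.78 and CREB scores of 6.03 and 9.32. All 3 were thus upstream, beside at least 3 start sites over 16134 bp. The gene for, which encodes a cGMP-dependent kinase known for foraging behaviour and learning, had a region of 10 bp at chr2L:3632103-3632113 that covered the TSS and scored 5.45 and 7.86. All 4 regions of these kinases were above the table's medians for both proteins.

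**Figure D4:**
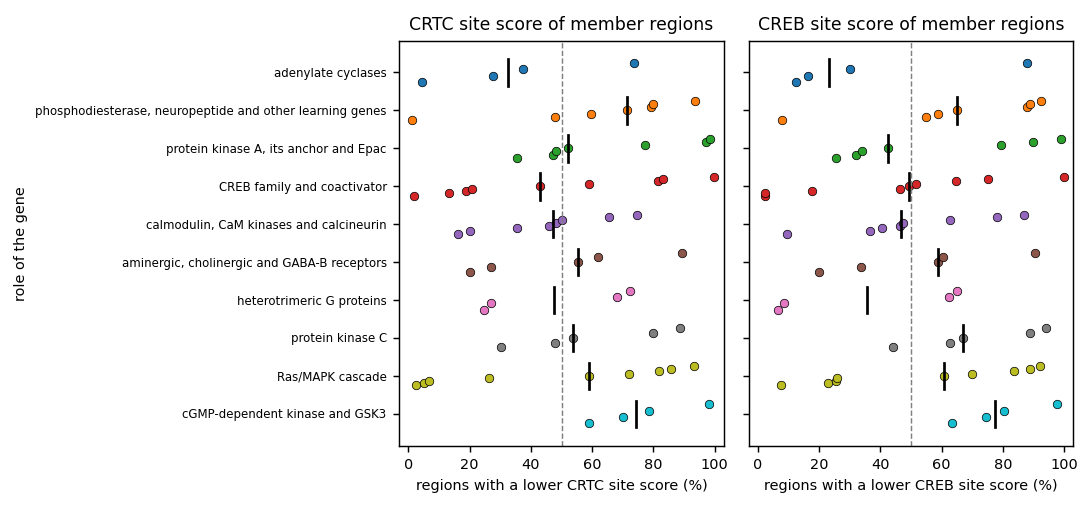
Percentage of all 4995 regions with a lower CRTC site score (left) or CREB site score (right) for each of the 62 regions, grouped by the role of the gene. Points are regions, black bars are the median of a role and the dashed line is the median of the table; the regions of sgg and for all lie above it in both panels, and those of the adenylate cyclases lie below it except Ac76E.

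Compared by role, the median CRTC score of the regions was lowest at the adenylate cyclases, with 3.57, and highest at sgg and for, with 7.50. For CREB the same roles had the lowest and highest medians, 2.94 and 8.59. Each of these rests on 4 regions, and the ranges crossed, from 1.98 to 7.30 and from 5.45 to 19.999 for CRTC. Even these roles hence overlapped in their scores.

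Sites of 1 protein with no partner within 200 bp also lay near the regions of these genes. Within 5000 bp and nearest to a region of one of them lay 16 CREB sites without a CRTC partner, at 12 genes, with scores of 1.52 to 5.11 and a median of 2.19. Over the list, 2182 of 7243 CREB sites, or 30.1%, had no partner, and their median score was 2.46 beside 3.67 for the whole list. The strongest of the 16 were at CrebA, chr3L:15527784-15527846 with a score of 5.11, and at Ac3, chr2L:21632560-21632604 with 4.89. The CREB site without a partner at Ac3 thus scored above the CREB site of its shared region, 3.33. Likewise 7 CRTC sites without a CREB partner lay at 5 genes, with scores of 1.66 to 4.17 and a median of 2.54. Over the list, 995 of 5990 CRTC sites, or 16.6%, had no partner, with a median of 2.80 beside 4.21 for the whole list. The strongest of the 7 was at Akap200, chr2L:8415191-8415281 with 4.17, and 2 lay between the regions of CrebB-17A with 3.59 and 2.54. Gene positions in dm3 were not used, so sites of a single protein at the 22 genes without a region were not looked for.

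The sites do not measure expression, and the purity of the nuclei cannot be read from them. Regions lay at the MB genes ey, toy, dac, trio and mub and at the neuronal genes elav, brp and Syt1, and none at prt, sNPF or Cadps. The 3 regions of mub all lay at least 34688 bp from a TSS. No region was listed as nSyb, but 1 was listed as n-syb, a name that the RefSeq gene table gives to nSyb and to Syb. Among glial genes moody and Eaat1 had 1 region each and repo and gcm none. Of photoreceptor genes, norpA, which is also a pathway gene, had 4 regions and chp and gl none. No region was listed as ninaE, but 2 were listed as R, a name that the RefSeq gene table gives to ninaE, Rap1 and r. The fat body genes Lsp2, Yp1 and apolpp had none.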

How the data were processed

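The authors mapped the MiSeq reads to dm3 (dmel_r5.43) with CLC Genomics Workbench, removed distant pairs and reads of low mapping quality, and called sites against input DNA with PICS and ERD in Strand NGS. The score and the false discovery rate (a p-value-like measure) of each site were deposited by the authors in 1 list per protein that pools replicates. The authors' deposited table adds gene symbols and distances to the TSS. Its fold changes and adjusted p-values of spaced-trained against naive flies, made by the authors with DESeq2 in 1 kb windows, hold their own comparison and were not used. In 515 rows the table holds no site.

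Regions were matched to genes by exact symbol, and each was paired with the CREB site nearest by edges. The number of start sites is the smallest number that places all regions of a gene at their distances, on either strand, within 2 bp. Of 1114 genes with more than 1 region, 939 needed fewer start sites than regions. On simulated data, 300 of 300 nearest sites and 200 of 200 start sites were recovered. Of the 52 names, 49 led to 1 gene in the RefSeq gene table, and none of these had a region under another name that is its alone. The names rad, DopR and D2R led to more than 1 gene or none, and other names of theirs were not searched. The gene table gives the name DopR to Dop1R1 and also to Dop1R2, the current name of DopR2, and its region was taken by the symbol. No test was made, since members are not replicates and the lists hold no values per library. Counts and medians are given beside those over all regions.

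The members and lists were chosen with earlier results of these data known. Full values are given for genes among the 10 with the most regions (ties kept) and those with the 10 highest CRTC or CREB scores, and genes with a region within 100 bp of the TSS are named. Values of other members were added for completeness, and genes of the second list are named with at least 3 regions. Scripts ran in Python 3.11.15 with NumPy 2.4.6, pandas 2.3.3, SciPy 1.17.1 and Matplotlib 3.10.9. CRE motifs were not analysed here.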

Additional observations from a re-analysis of the deposited data

How the results depend on the processing

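Most values moved little with the choices made. The count of 62 regions stayed 62 with synonyms matched too and was 53 with sites closer than 500 bp merged, but it fell to 40 with CRTC scores above the list median, which 56.4% of all regions had, and to 30 with sites at least 100 bp wide, which 55.9% of all regions were. The latter choice also left 18 of the 30 genes. The share of all genes in the table that kept a region is not given here. This loss was therefore not read as particular to the 30 genes. For closeness to a TSS, the share was 50% within 200 bp and 80.6% within 1000 bp, beside 64.5% within 500 bp, and over all regions these shares were 52.7%, 75.5% and 63.8%. With 1 region per gene, the one nearest to a TSS, it was 96.7%, beside 84.4% over all genes. That choice favours closeness by itself, and more so at genes with more regions. The number of regions with a CREB site was 57 when sites had to overlap or touch and 48 when at least 50% of the CRTC site had to be covered, as it was at 73.0% of all regions. The median scores ranged from 4.90 to 5.94 for CRTC and from 5.41 to 6.08 for CREB over all alternatives. With sites at least 100 bp wide, the medians of 5.94 and 5.98 lay below those of the table, 6.17 and 6.07, while over all widths they lay above them. Leaving out CrebB-17A and phl, sites at most 5000 bp from the TSS (55 regions at 30 genes), and wide sites for the distances (63.3%) were chosen after seeing the data.

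No paired analysis was possible because the lists hold no values per library, and for the same reason no replicate was left out. The alternatives for CRE motifs were not run, since no promoter sequence was used here. Since 30 of 62 regions were at least 100 bp wide, counts per gene depend on the width accepted, and the depth behind any site is unknown.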

Other observations

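In the second list, of 87 other genes of the same pathways, 46 genes held 106 regions, with a median CRTC score of 5.13 and a median CREB score of 4.81, and 61.3% of these regions lay within 500 bp of a TSS. All 5 other phosphodiesterase genes had regions, 14 in total, with 5 at Pde11 and 3 each at Pde1c and Pde8. Among all protein-coding genes, 19.4% had a region. Pde8, which breaks down cyclic nucleotides as dnc does, had a CRTC score of 51.98 and a CREB score of 63.6, the highest CREB score of all 4995 regions. The CREB coactivator gene nej, which encodes CBP, had 5 regions, and its highest scores were 9.44 for CRTC and 10.4 for CREB.

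Of 13 other Ras/MAPK genes, 8 held 23 regions. Lk6, a kinase of the Mnk family, had 6, the phosphatase gene Mkp3 had 4, and Gap1, puc and S6k had 3 each. Mkp3 had the highest scores among them, 26.01 for CRTC and 20.3 for CREB. Of 15 other learning genes, 12 held 32 regions (13 and 33 with Vap-33A, held as Vap-33-1), with 8 at pum, a translational repressor, 7 at gish, a casein kinase I, 4 at 14-3-3zeta and 3 at mura. The highest CRTC scores of gish and pum were 18.6 and 17.02. norpA, a phospholipase C, had 4 regions and CASK, a membrane-associated scaffold kinase, had 3. Of 12 other receptor genes, 3 had regions, or 25%, beside 4 of 12 receptor genes of the main list and 19.4% of all protein-coding genes. The share of 19.4% also stands beside the Ras/MAPK and learning gene counts. No test was made of any of these counts, and nothing about a role was read from them.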
